A study of Mus musculus with 10 samples.

Results

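OB11 DP cells were compared with WT CD8 cells across all genes of an RNA sequencing study of naive mouse T cells. DP cells were sorted as carrying both CD4 and CD8, from mice homozygous for OB11 (OB11/OB11). WT CD8 cells were sorted from wild-type mice. The comparison takes the 4 libraries whose sample titles name these cells, 2 of each, out of 10 libraries in the series. The other libraries, also 2 per group, are OB11/OB11 cells with high CD4 (CD4hi), OB11/OB11 cells with low CD4 (CD4lo) and wild-type CD4 cells (WT CD4). All cells came from spleens of mice aged 6 weeks and had been sorted as TCRb-positive cells of a naive surface phenotype, without CD25 and CD44. A letter L stands in the titles of WT CD4 and CD4lo samples and in none of DP, WT CD8 or CD4hi. It does not separate DP from WT CD8, but it does separate DP from WT CD4 and from CD4lo. What OB11 does to its gene, whether the wild-type mice are littermates and whether replicate libraries had separate source animals is not given in the labels. P-values therefore cover the spread between libraries, which may be technical. Genotype and sort gate change together between DP and WT CD8 cells, and their parts in any difference cannot be told apart.

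CD4 and CD8 T cells arise in the thymus from precursors that carry both coreceptors. ThPOK, a zinc finger transcription factor encoded by Zbtb7b, directs and maintains the CD4 helper fate and restrains CD8 genes, while Runx3, with its partner CBFb, silences Cd4 and Zbtb7b in the CD8 lineage. The title of the series concerns the loop by which ThPOK maintains its own expression in mature CD4 cells. Mature peripheral T cells of the alpha beta lineage normally keep a single coreceptor.

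Promoter windows of the gene in the title of the series and of the gene with the largest fall among the named genes (Ly6c2) are shown for reference, because Runx factors are known to act on the Zbtb7b locus. Each runs 5′ to 3′ on the gene's strand from 250 bases before to 50 bases after a RefSeq transcript start on GRCm38.p6. Capitals mark the core Runx motif TGTGGT or its reverse complement ACCACA, the only motif searched. The windows lie at chr3:89393329-89393628 and chr3:89387622-89387921 (Zbtb7b, minus strand) and at chr15:75111922-75112221 (Ly6c2, minus strand).
Zbtb7b, first start: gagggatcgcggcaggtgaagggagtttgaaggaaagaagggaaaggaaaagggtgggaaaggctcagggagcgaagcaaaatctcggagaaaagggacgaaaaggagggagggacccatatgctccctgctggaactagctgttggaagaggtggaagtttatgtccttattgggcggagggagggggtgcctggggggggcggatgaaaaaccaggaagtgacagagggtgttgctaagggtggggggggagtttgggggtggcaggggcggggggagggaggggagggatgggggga
Zbtb7b, second start: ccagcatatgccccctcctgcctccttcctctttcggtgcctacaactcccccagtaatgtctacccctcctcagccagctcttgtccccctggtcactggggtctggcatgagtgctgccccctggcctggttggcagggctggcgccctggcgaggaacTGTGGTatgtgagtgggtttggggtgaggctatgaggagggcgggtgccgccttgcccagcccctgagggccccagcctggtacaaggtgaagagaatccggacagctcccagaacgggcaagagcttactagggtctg
Ly6c2, first start: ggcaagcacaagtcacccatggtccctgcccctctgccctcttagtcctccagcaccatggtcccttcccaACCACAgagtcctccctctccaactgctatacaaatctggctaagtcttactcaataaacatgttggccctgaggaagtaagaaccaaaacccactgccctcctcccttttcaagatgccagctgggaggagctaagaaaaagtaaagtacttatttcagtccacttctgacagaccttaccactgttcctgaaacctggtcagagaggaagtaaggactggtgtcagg
The second Zbtb7b window held the motif 89 bases before the start and the Ly6c2 window held it 179 bases before, while the first Zbtb7b window held none. Of 32851 RefSeq windows, 16.8% held the motif on either strand. The share was 12.9% of windows of tested genes (1367 of 10566), 13.4% of windows of genes called higher in DP cells (72 of 539) and 17% of windows of genes called lower (47 of 276). A match describes letters in a window and is not a binding site.

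Levels are normalised CPM, the count of a gene relative to the TMM-scaled total of its library, and changes are log2 fold changes of DP over WT CD8 ± SE from an edgeR quasi-likelihood fit, with Benjamini-Hochberg adjusted p over 12193 tested genes and n = 2 libraries per group. Total counts were 6511952 and 7174290 in DP libraries, and 5055956 and 7288738 in WT CD8 libraries. Among all 10 libraries CD4hi library 1 had 11028 and WT CD4 library 2 had 9301 genes without a count, against 17228 to 19041 in the others, and both enter the shared estimate of spread. At an adjusted p of 0.05, 835 genes differed between DP and WT CD8, 6.85% of those tested. Of these, 557 were higher in DP cells (4.57%) and 278 were lower (2.28%), and 337 changed by at least 1 on the log2 scale (2.76%). Leaving out 1 of the 4 libraries gave 312 calls (without WT CD8 library 2) to 399 (without DP library 1), and none of the 835 genes changed sign in any alternative. In bulk RNA, fewer cells of a type and less RNA per cell cannot be told apart, which holds for every level given here.

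**Figure D1:**
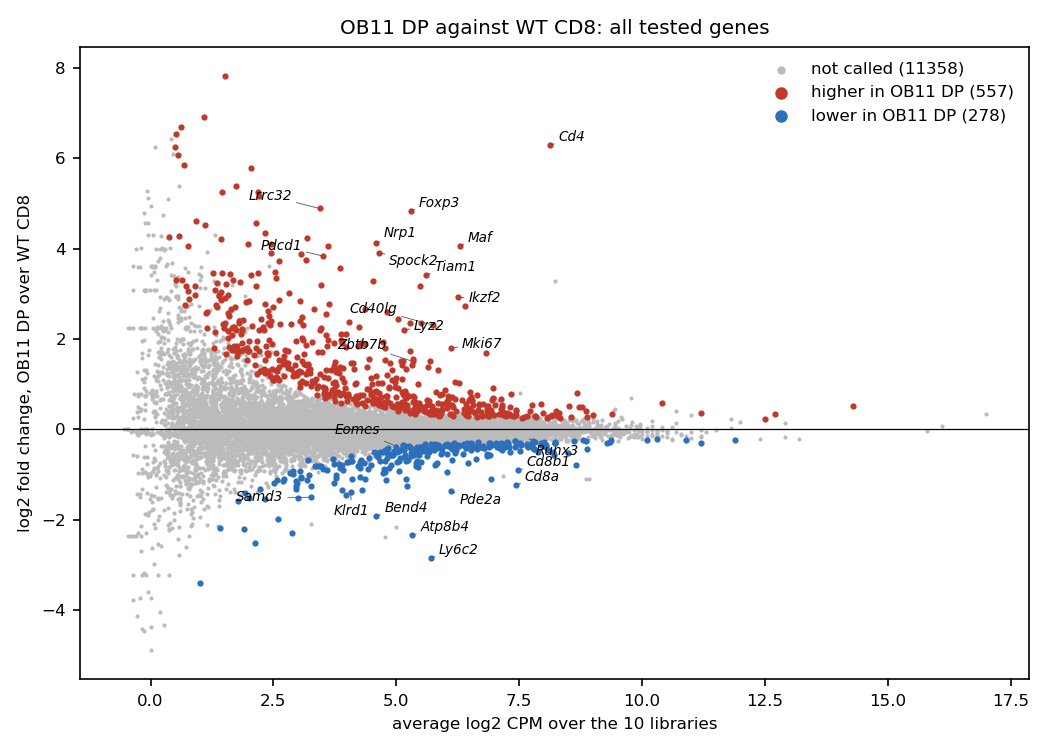
Log2 fold change of OB11 DP over WT CD8 (vertical axis) against average log2 CPM over the 10 libraries (horizontal axis), one point per tested gene. Red points are the 557 genes called higher in DP cells and blue points the 278 called lower; Cd4 at 6.29 and Ly6c2 at -2.84 mark the ends among well-expressed genes.

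The coreceptor transcripts followed the gate. Cd4 had 235 and 249 CPM in DP libraries, against 1.75 and 4.03 CPM in WT CD8 libraries. Cd8a, the CD8 alpha chain, had 256 and 260 CPM in DP libraries, against 601 and 606 CPM in WT CD8 libraries. Cd8b1, the beta chain, had 276 and 281 CPM in DP libraries, against 516 and 524 CPM in WT CD8 libraries. The groups were apart for all 3 genes: Cd4 rose by 6.29 ± 0.18 (adjusted p = 4.17e-11), Cd8a fell by 1.22 ± 0.14 (adjusted p = 5.28e-05) and Cd8b1 fell by 0.90 ± 0.09 (adjusted p = 2.32e-05). DP cells held 42.7% of the WT CD8 mean of Cd8a and 53.5% of that of Cd8b1. They held 50.1% of the CD4hi mean of Cd4, which was 483 ± 52.5 CPM (SD, n = 2). Bulk levels cannot tell cells that hold both coreceptor transcripts from a mix of cells that each hold a single one. With DESeq2 the Cd8a difference had an adjusted p of 0.0512. On mm10, Cd4 (124864692 to 124888221), Cd8a (71373427 to 71379173) and Cd8b1 (71322788 to 71337494) lie on chromosome 6, by GENCODE annotation.

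Zbtb7b was low in both groups and higher in DP cells. It had 7.05 and 9.18 CPM in DP libraries, against 2.72 and 2.96 CPM in WT CD8 libraries, a rise of 1.51 ± 0.21 (adjusted p = 0.000355). For comparison it had 27.7 and 28 CPM in CD4hi, 9.38 and 8.62 CPM in CD4lo and 158 and 145 CPM in WT CD4 libraries. DP cells thus lay above WT CD8, beside CD4lo and far under WT CD4, and the difference from WT CD4 was -4.21 ± 0.12 (adjusted p = 1.61e-11). In DP against WT CD4, 2332 genes were called (19.1%), 1349 higher (11.1%) and 983 lower (8.06%). For every difference of DP from WT CD4 given here, what the L stands for, genotype and gate cannot be told apart. The gene spans 89377644 to 89394776 on the minus strand of chromosome 3. Zbtb7a, which encodes the related factor LRF, had 145 and 142 CPM in DP libraries, against 150 and 150 CPM in WT CD8 libraries (adjusted p = 0.734).

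Runx3 had 218 and 201 CPM in DP libraries, against 235 and 244 CPM in WT CD8 libraries. The difference of -0.19 ± 0.08 did not pass the test (adjusted p = 0.171). Both DP values were the lower ones, but libraries of the groups did not overlap in 51.2% of tested genes. WT CD4 libraries had 131 and 119 CPM, and DP cells were higher than these by 0.75 ± 0.08 (adjusted p = 7.8e-06). Eomes, a T-box factor of CD8 memory, had 34.3 and 36.9 CPM in DP libraries, against 47.1 and 45.7 CPM in WT CD8 libraries (-0.38 ± 0.12, adjusted p = 0.0891). It passed in the fit of the 4 libraries alone (adjusted p = 0.0137) and without the pair of libraries with few zeros (adjusted p = 0.0466). Tbx21, which encodes T-bet, had 11.1 and 13.3 CPM in DP libraries, against 11.1 and 13.2 CPM in WT CD8 libraries, and the groups overlapped.

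Helper genes were higher in DP cells. Of 12 genes of the CD4 and helper list, 9 were called higher (75%) and 0 lower. Over all tested genes 4.57% were called higher and 2.28% lower, and these shares stand beside every list count below. The median change was 0.66 over the list against 0.0086 over all tested genes. The list holds Cd4 itself, which the gate selects. Cd40lg, the ligand by which helper cells stimulate B cells, had 41.2 and 44.9 CPM in DP libraries, against 7.37 and 9.68 CPM in WT CD8 libraries. The groups were far apart and Cd40lg rose by 2.31 ± 0.16 (adjusted p = 3.8e-07), yet it stayed under the 130 and 111 CPM of WT CD4 libraries. Folr4, which encodes folate receptor 4, had 120 and 124 CPM in DP libraries, against 38.8 and 36.8 CPM in WT CD8 libraries, a rise of 1.69 ± 0.10. The costimulatory receptor gene Icos had 61 and 65.8 CPM in DP libraries, against 22.7 and 27.4 CPM in WT CD8 libraries, a rise of 1.32 ± 0.10. Cd28 rose by 0.69 ± 0.09. The members that were not called, Satb1, Tcf7 and Lef1, lay between -0.05 and -0.04.

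Among 41 lineage transcription factors, 16 were called higher (39%) and 1 (Klf2) was called lower (2.44%). Over all tested genes the shares were 4.57% and 2.28%. Maf, a factor of helper and regulatory subsets, had 72.7 and 74.3 CPM in DP libraries, against 4.07 and 4.57 CPM in WT CD8 libraries. It rose by 4.07 ± 0.13 (adjusted p = 1.07e-10) and reached the range of WT CD4 libraries, 80.1 and 68.4 CPM. Tox2 rose by 3.87 ± 0.37, with 14.3 and 12.1 CPM in DP libraries, against 1.36 and 0.538 CPM in WT CD8 libraries. Prdm1, which encodes Blimp-1, had 8.93 and 9.18 CPM in DP libraries, against 1.94 and 1.34 CPM in WT CD8 libraries, a rise of 2.49 ± 0.29. Smaller rises were found for Gata3 (0.63 ± 0.11), Runx1 (0.55 ± 0.09) and Tox (0.50 ± 0.09), factors of helper differentiation and thymic selection. These last 3 lost their call in single leave-one-out fits: Gata3 without WT CD8 library 2 (adjusted p = 0.102), Runx1 without WT CD8 library 2 (0.0567) or DP library 1 (0.0708), and Tox without WT CD8 library 1 (0.0625) or 2 (0.0549) or DP library 1 (0.0751). Leaving out 1 library left 10 to 12 factors called higher, with 10 without WT CD8 library 2 and without DP library 1.

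Genes of the CD8 lineage were divided. Of 19 list members, 8 were called lower (42.1%) and 1 (Xcl1) higher (5.26%), against 2.28% and 4.57% over all tested genes. The median was -0.38, and 2 of the 8 are the coreceptor chains. Xcl1, a chemokine gene, lost its call with DESeq2 and without WT CD8 library 2, DP library 1 or DP library 2 (adjusted p up to 0.175). Ly6c2, a surface antigen of the Ly6 family, had 20.4 and 16.7 CPM in DP libraries, against 122 and 142 CPM in WT CD8 libraries. It fell by 2.84 ± 0.13 (adjusted p = 3.3e-09), the largest fall among named genes of this comparison. Ly6c1 is close to it in sequence, so the split of reads between them is uncertain. Ly6c1 had 6.9 and 9.74 CPM in DP libraries, against 4.27 and 4.3 CPM in WT CD8 libraries, and its rise of 0.96 ± 0.26 lost the call with DESeq2 and without either WT CD8 library or DP library 2 (adjusted p up to 0.404).

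Klrd1, which encodes CD94, had 9.25 and 11.9 CPM in DP libraries, against 25.8 and 29.6 CPM in WT CD8 libraries. Klrk1, which encodes the activating receptor NKG2D, had 8.15 and 8.33 CPM in DP libraries, against 18.2 and 23.2 CPM in WT CD8 libraries. Nkg7, a granule membrane protein of cytotoxic cells, had 37.3 and 40.1 CPM in DP libraries, against 88.7 and 78.3 CPM in WT CD8 libraries. The changes of these 3 genes were -1.39 ± 0.16, -1.34 ± 0.18 and -1.10 ± 0.14 in log2, with adjusted p of 5.28e-05, 0.000241 and 0.000132. Other genes of the same list did not pass the test: perforin (Prf1) had 50 and 57.5 CPM in DP libraries, against 47.7 and 54.2 CPM in WT CD8 libraries, and the chemokine gene Ccl5 had 57.8 and 58.6 CPM in DP libraries, against 46.9 and 51.3 CPM in WT CD8 libraries. Leaving out 1 library left 6 to 8 of the list called lower, with 6 without WT CD8 library 2 and without DP library 1.

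The list of cytotoxic genes had members in both directions, 5 higher (26.3%) and 3 lower (15.8%) of 19. Over all tested genes the shares were 4.57% and 2.28%. Stx11, which encodes a syntaxin of granule release, had 11.9 and 11.3 CPM in DP libraries, against 3.3 and 3.09 CPM in WT CD8 libraries, a rise of 1.86 ± 0.24 (adjusted p = 0.00021). The granzyme genes Gzmk and Gzmb rose by 1.70 ± 0.38 and 1.17 ± 0.30 and Ifng, which encodes interferon gamma, by 1.30 ± 0.34, while Gzmm fell (-2.17 ± 0.54). These 4 calls rest on few counts and were lost in 3 or more leave-one-out fits, with adjusted p up to 0.135 for Gzmk, 0.219 for Gzmb, 0.259 for Ifng and 0.461 for Gzmm. Among 18 NK-type receptors, 3 were lower (16.7%), Klrk1, Klrd1 and Klrc1, and 2 higher (11.1%), Klrb1f and Slamf7. The 2 higher ones were lost in every leave-one-out fit, and Klrc1 was lost without WT CD8 library 2 (adjusted p = 0.0975) and without DP library 1 (0.0922).

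Well-expressed genes outside these lists also fell. Atp8b4, which encodes a phospholipid flippase, had 17.9 and 14.1 CPM in DP libraries, against 78.4 and 82.6 CPM in WT CD8 libraries (-2.34 ± 0.12, adjusted p = 1.95e-08). Bend4 had 17.1 and 18.2 CPM in DP libraries, against 64.8 and 68.1 CPM in WT CD8 libraries (-1.91 ± 0.12, adjusted p = 1.79e-07). Pde2a, a cyclic nucleotide phosphodiesterase, had 39.2 and 36.6 CPM in DP libraries, against 103 and 93.3 CPM in WT CD8 libraries (-1.37 ± 0.08, adjusted p = 1.09e-07). These genes come from the 15 lowest calls, a ranking limited to genes whose DP and WT CD8 libraries do not overlap. Of the 15 lowest named genes, Samd3, Plekha6, Il18rap and Scd1 lost their call without single libraries, with adjusted p up to 0.0912, 0.0723, 0.318 and 0.239.

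**Figure D2:**
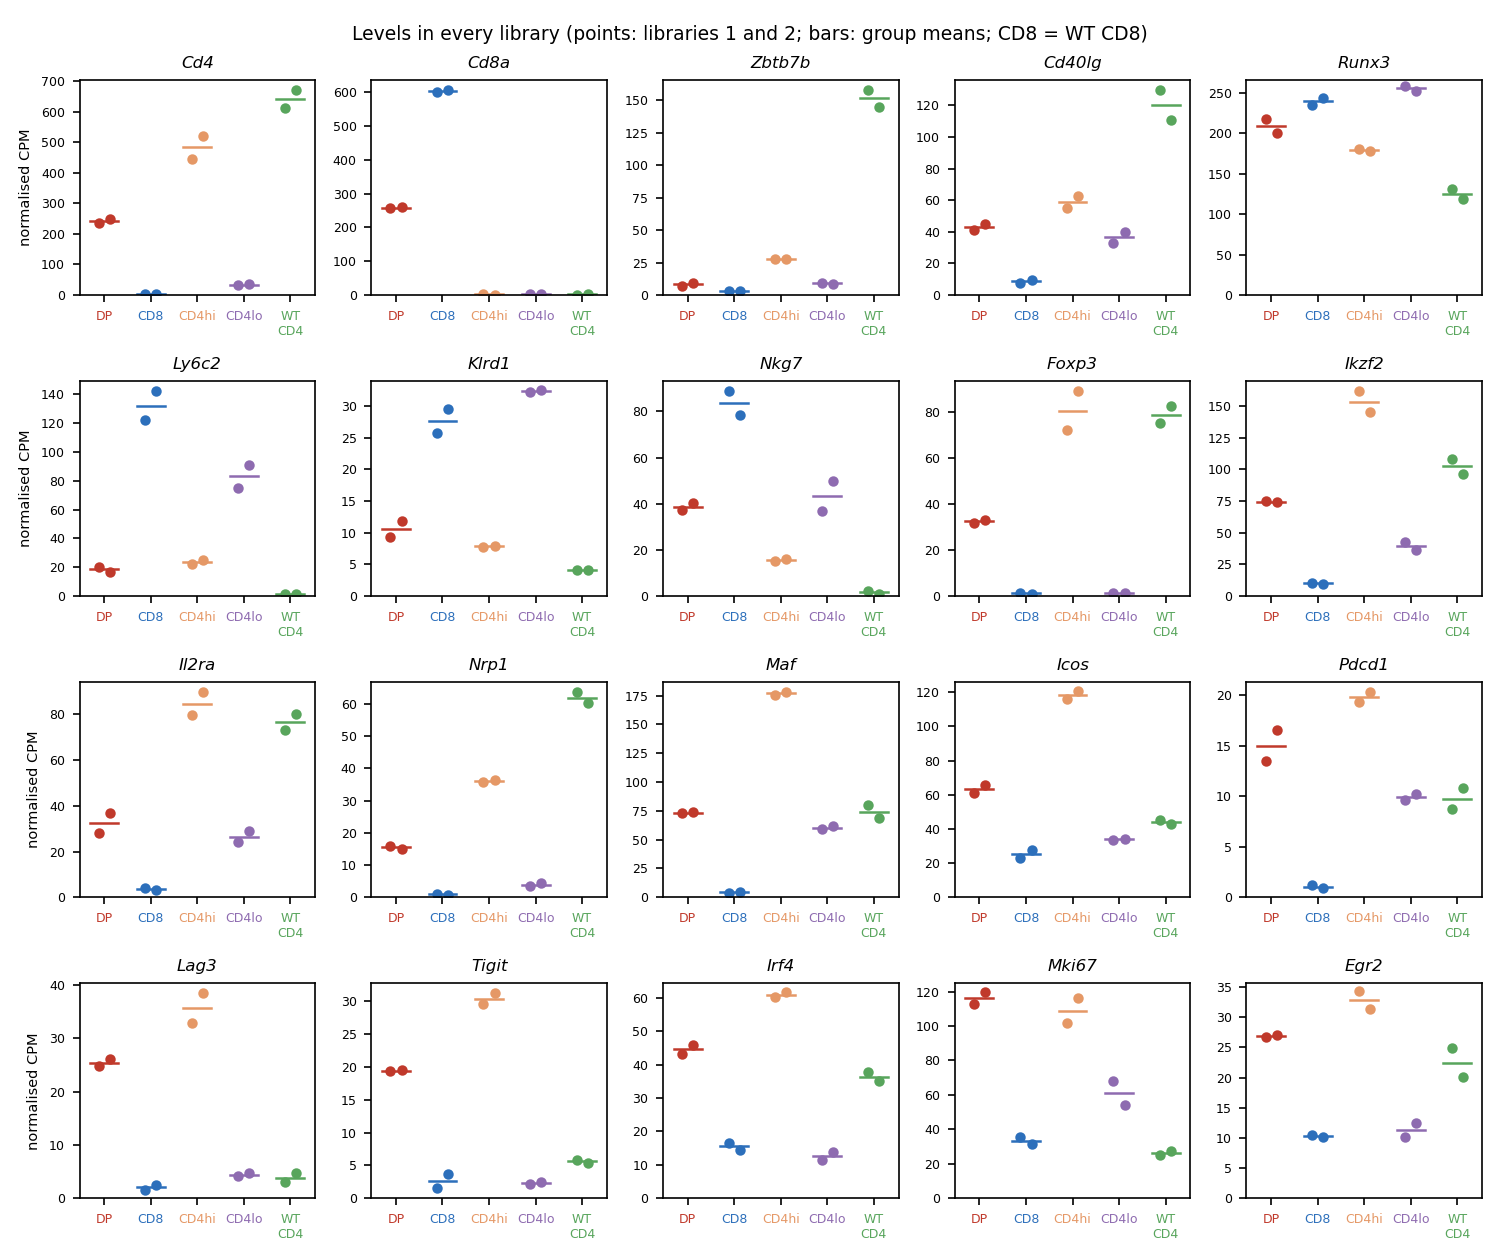
Normalised CPM (vertical axes, each from 0) of 20 genes in every library, with OB11 DP, WT CD8, OB11 CD4hi, OB11 CD4lo and WT CD4 from left to right; points are libraries 1 and 2 and bars are group means. Cd4 had 235 and 249 CPM in DP libraries and Cd8a 256 and 260 CPM, and Foxp3, Ikzf2, Maf and Lag3 lay far above WT CD8 in both DP libraries.

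Genes of regulatory T cells, the suppressive CD4 subset defined by the factor FOXP3, were mostly higher in DP cells. All 20 members of the list were tested, 16 were called higher and 0 lower, with a median of 1.97. The 16 stayed between 15 and 17 in every alternative. Foxp3 had 31.7 and 33.3 CPM in DP libraries, against 1.36 and 0.941 CPM in WT CD8 libraries. It rose by 4.84 ± 0.22 (adjusted p = 4.8e-09), and DP cells held 41.2% of the WT CD4 mean. Ikzf2, which encodes Helios, had 74.8 and 74.3 CPM in DP libraries, against 10.7 and 9.14 CPM in WT CD8 libraries, a rise of 2.92 ± 0.13.

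Surface molecules of regulatory T cells followed. Il2ra, which encodes CD25, had 28.2 and 37 CPM in DP libraries, against 3.88 and 3.36 CPM in WT CD8 libraries, a rise of 3.19 ± 0.20 (adjusted p = 1.09e-07), although the gate took cells without CD25 protein. WT CD4 libraries, from the same gate, had 73 and 80.2 CPM of Il2ra. Nrp1, which encodes neuropilin-1, had 16 and 15.1 CPM in DP libraries, against 0.97 and 0.806 CPM in WT CD8 libraries, a rise of 4.12 ± 0.23. Tnfrsf4, which encodes OX40, rose by 2.38 ± 0.23, and Ctla4, an inhibitory receptor, by 1.56 ± 0.11. Lrrc32, which encodes the TGF-beta docking receptor GARP, had 7.21 and 8.05 CPM in DP libraries, against 0.194 and 0.269 CPM in WT CD8 libraries. Its WT CD8 counts summed to 3, giving a ratio of 32.1 with a 95% counting interval of 10.7 to 158. Itgb8, an integrin chain that activates TGF-beta, had a ratio of 40.2 (10.8 to 338) over 2 WT CD8 counts. Both intervals cover counting error only. Tnfrsf18, which encodes GITR, had 23.5 and 24.3 CPM in DP libraries, against 22.5 and 17.5 CPM in WT CD8 libraries, and was not called.

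Set beside the other groups, Foxp3 and the summed list in DP cells lay under CD4hi and WT CD4 and above CD4lo and WT CD8. Foxp3 averaged 32.5 ± 1.18 CPM in DP cells, 80.7 ± 11.9 CPM in CD4hi and 78.8 ± 5.21 CPM in WT CD4 cells (SD, n = 2 each), while CD4lo libraries had 1.47 and 1.17 CPM. Over the whole list, summed levels were 548 and 570 CPM in DP, 965 and 972 CPM in CD4hi, 330 and 354 CPM in CD4lo, 173 and 160 CPM in WT CD8 and 833 and 802 CPM in WT CD4 libraries.

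Genes of follicular helper cells, which support germinal centre B cells, were called higher for 9 of 11 tested and lower for 0, with a median of 1.33. Pdcd1, which encodes PD-1, had 13.5 and 16.5 CPM in DP libraries, against 1.16 and 0.941 CPM in WT CD8 libraries. It rose by 3.84 ± 0.28 (adjusted p = 5.78e-07) and stood above the 8.71 and 10.8 CPM of WT CD4 libraries. Il21, a cytokine gene of these cells, had 5.64 and 5.22 CPM in DP libraries, against 0 and 0.134 CPM in WT CD8 libraries, where 1 count was found, giving a ratio of 68.3 with a counting interval of 11.9 to 2730. The chemokine receptor gene Cxcr5 had 27.4 and 25.8 CPM in DP libraries, against 10.5 and 17.6 CPM in WT CD8 libraries, and its rise of 0.89 ± 0.19 was lost without WT CD8 library 1 (adjusted p = 0.109), DP library 1 (0.0762) or DP library 2 (0.0582). Without 1 library, 5 to 6 of the list were called, with 5 without DP library 2, and DESeq2 called 7.

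Inhibitory receptors, which dampen T cell signalling, were called higher for 5 of 12 tested and lower for 0. Lag3, whose product binds MHC class II, had 24.8 and 26.1 CPM in DP libraries, against 1.55 and 2.55 CPM in WT CD8 libraries. Tigit had 19.3 and 19.5 CPM in DP libraries, against 1.55 and 3.76 CPM in WT CD8 libraries. The rises were 3.57 ± 0.24 for Lag3 (adjusted p = 3.05e-07) and 2.77 ± 0.25 for Tigit (adjusted p = 7.35e-06). WT CD4 libraries had 3.02 and 4.72 CPM of Lag3 and 5.86 and 5.42 CPM of Tigit. DP cells thus exceeded both wild-type groups, by 2.68 ± 0.22 and 1.78 ± 0.23 against WT CD4 (adjusted p = 5.89e-07 and 5.23e-05). The L separates DP from WT CD4 here too. CD4hi libraries were higher than DP libraries, with 32.9 and 38.5 CPM of Lag3 and 29.5 and 31.2 CPM of Tigit. Spock2, a proteoglycan gene among the 15 highest, showed the same order, with 41.5 and 41 CPM in DP, 55.8 and 66.1 CPM in CD4hi, 3.49 and 2.15 CPM in WT CD8 and 8.35 and 8.48 CPM in WT CD4 libraries. Cd5, a negative regulator that tracks T cell receptor signal, rose by 0.42 ± 0.08 and lost its call without 3 of the 4 libraries (adjusted p up to 0.149).

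Genes of the type 17 program, which drives mucosal and neutrophil responses, were called higher for 8 of 13 tested and lower for 0, with a median of 1.71. Ccr6, a chemokine receptor of these cells, had 11.1 and 14.1 CPM in DP libraries, against 3.3 and 4.3 CPM in WT CD8 libraries, a rise of 1.71 ± 0.24. The receptor genes Il1r1 and Il23r rested on 2 and 1 WT CD8 counts, with ratios of 19.2 (counting interval 4.98 to 164) and 13.1 (1.99 to 554). The Il23r call was lost with DESeq2 (adjusted p = 0.197) and without WT CD8 library 2 (0.368), DP library 1 (0.0922) or DP library 2 (0.17). Leaving out 1 library left 6 to 8 of the list called higher, with 6 without WT CD8 library 2 and without DP library 1. The cytokine genes themselves were at or near 0: Il17a had 0.157 and 0.282 CPM in DP libraries, against 0 and 0.134 CPM in WT CD8 libraries, and Il17f had 0 and 0.141 CPM in DP libraries, against 0 and 0.134 CPM in WT CD8 libraries. The type 2 receptor gene Ccr4 had 9.09 and 8.47 CPM in DP libraries, against 0.776 and 0.538 CPM in WT CD8 libraries, a rise of 3.74 ± 0.35, whereas Il4ra fell by 0.38 ± 0.08, a call lost in every leave-one-out fit (adjusted p up to 0.0773). Of 10 type 1 genes, 3 were lower and 1 (Ifng) higher, and none of the lower ones was called without WT CD8 library 2 or without DP library 2.

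Genes induced by T cell receptor signals were called higher for 12 of 25 tested and lower for 0, with a median of 0.35. Irf4, a factor induced in step with receptor signal strength, had 43.3 and 45.8 CPM in DP libraries, against 16.5 and 14.6 CPM in WT CD8 libraries. Egr2 had 26.8 and 27.1 CPM in DP libraries, against 10.5 and 10.2 CPM in WT CD8 libraries, and Nr4a1, which encodes Nur77, had 32 and 30.8 CPM in DP libraries, against 12.2 and 14.5 CPM in WT CD8 libraries. The 3 genes were higher in both DP libraries, with rises of 1.52 ± 0.12, 1.38 ± 0.16 and 1.22 ± 0.14 and adjusted p of 1.57e-06, 5.93e-05 and 8.49e-05. Members that were not called include the immediate early gene Fos, with 66.3 and 76.5 CPM in DP libraries, against 76.6 and 86.7 CPM in WT CD8 libraries, and its partner gene Jun, with 212 and 211 CPM in DP libraries, against 202 and 200 CPM in WT CD8 libraries. The count fell to 4 without WT CD8 library 2 and without DP library 2, to 6 without WT CD8 library 1, to 7 without DP library 1 and to 7 with DESeq2; Irf4, Egr2, Egr1 and Nr4a1 kept their calls in all alternatives.

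Of 20 naive and trafficking genes, 6 were lower (30%) and 2 higher (10%), against 2.28% and 4.57% over all tested genes, with a median of -0.05. Il7r, which encodes the survival receptor for IL-7, had 256 and 264 CPM in DP libraries, against 370 and 371 CPM in WT CD8 libraries (-0.51 ± 0.07). Dapl1 fell by 0.94 ± 0.09. Cd44, a gated marker, was named after its value was seen: it had 79.6 and 76.1 CPM in DP libraries, against 37.8 and 38 CPM in WT CD8 libraries, a rise of 1.04 ± 0.08 (adjusted p = 1.59e-06), with 80.7 and 77.4 CPM in WT CD4 libraries. The difference of DP from WT CD4 was -0.02 ± 0.08 for Cd44 (adjusted p = 0.881).

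Among 28 memory and activation genes, 9 were higher (32.1%) and 3 lower (10.7%), against 4.57% and 2.28% over all tested genes. S100a4, a calcium-binding protein gene of effector memory cells, had 10.7 and 8.47 CPM in DP libraries, against 0.388 and 0.672 CPM in WT CD8 libraries, a rise of 4.06 ± 0.39 (adjusted p = 1.07e-05). Lgals1, which encodes galectin-1, had 33.1 and 32.1 CPM in DP libraries, against 12.6 and 13.4 CPM in WT CD8 libraries, a rise of 1.31 ± 0.14. The 3 lower members, Il18rap, Il18r1 and Cxcr6, were all lost without DP library 2. Integrin chains, which set adhesion and homing, had 6 of 16 called higher and 0 lower, the same count in every leave-one-out fit. Itgb1, the beta-1 chain, had 147 and 142 CPM in DP libraries, against 77.2 and 75.7 CPM in WT CD8 libraries, a rise of 0.92 ± 0.08 (adjusted p = 3e-06). Itga4, Itgal, Itga6 and Itgb3 rose by 0.51 to 0.82.

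**Figure D3:**
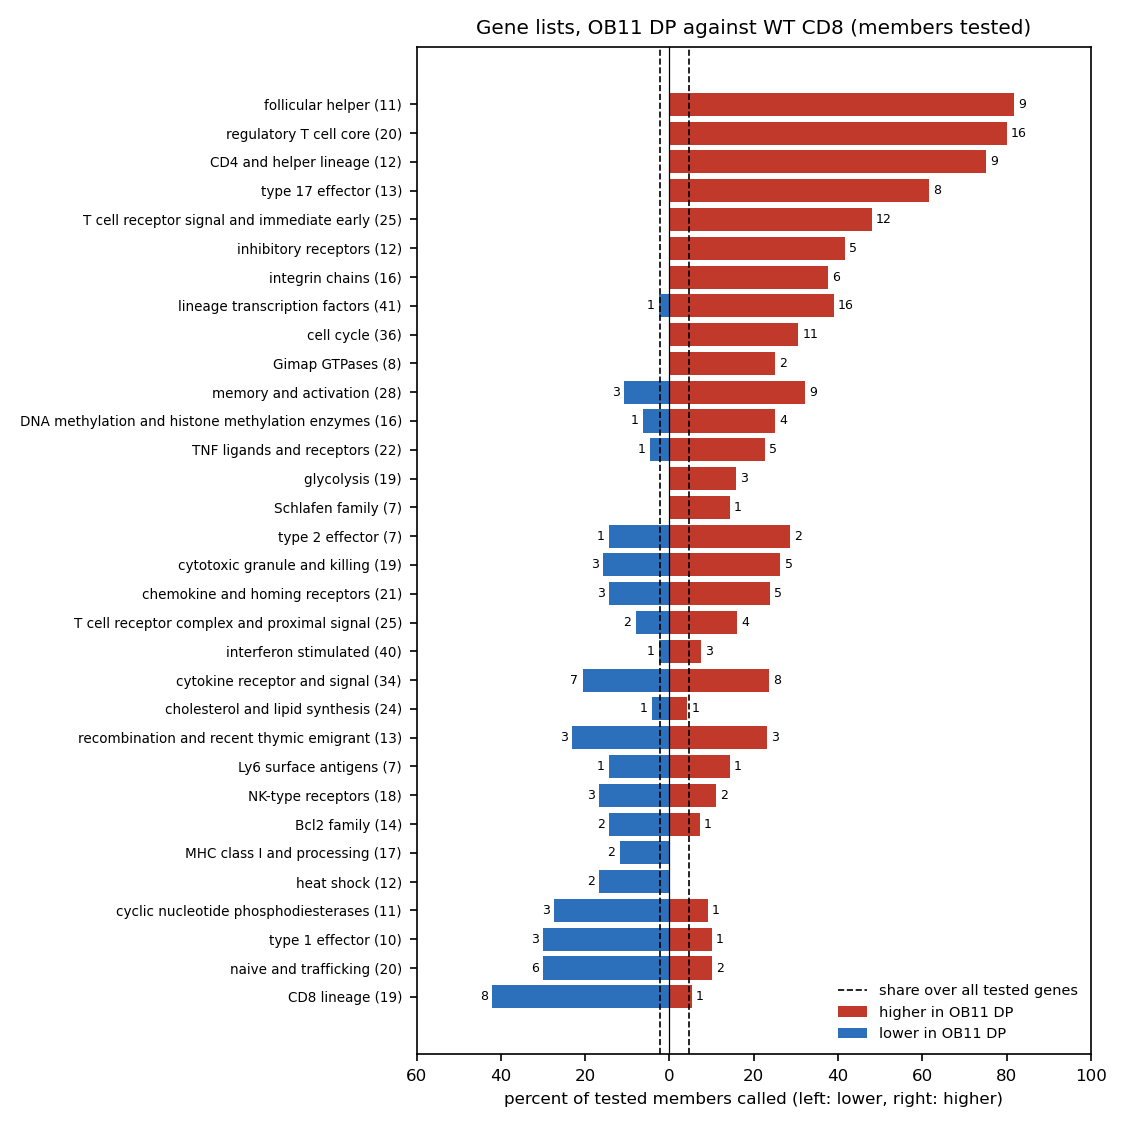
Percent of tested members of each gene list called higher in OB11 DP (red, right) or lower (blue, left) against WT CD8, with the number of called members at the bar end and the number tested in brackets; dashed lines give the shares over all tested genes, 4.57% higher and 2.28% lower. Follicular helper (9 of 11), regulatory T cell (16 of 20) and helper genes (9 of 12) had the longest bars to the right and the CD8 lineage (8 of 19) the longest to the left.

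Markers of other spleen cells were checked beside these groups. Macrophage and monocyte markers were called higher in DP cells for 5 of 9 tested, and their summed level over 12 markers was 339 and 358 CPM in DP libraries, against 193 and 205 CPM in WT CD8 libraries. Lyz2, which encodes lysozyme, had 94.5 and 103 CPM in DP libraries, against 21 and 21.9 CPM in WT CD8 libraries, a rise of 2.20 ± 0.12 (adjusted p = 2.01e-08). Csf1r, which encodes the receptor for the macrophage growth factor, had 11 and 12.3 CPM in DP libraries, against 1.75 and 1.48 CPM in WT CD8 libraries, a rise of 2.85 ± 0.42 (adjusted p = 0.000665). Both lay above all 6 libraries of the other groups, whose summed macrophage markers ran from 153 to 226 CPM. With 1 library left out, or with DESeq2, Lyz2 and Csf1r alone of this list were called, and C1qb, Mpeg1 and Ctss were not.

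Of 12 B cell markers, 2 were called lower in DP cells and 0 higher. Their summed level was 264 and 309 CPM in DP libraries, against 358 and 368 CPM in WT CD8 libraries, and 53.5 to 107 CPM in the other groups. Cd79a, a chain of the B cell receptor, had 10.3 and 10.2 CPM in DP libraries, against 21 and 22 CPM in WT CD8 libraries (-1.07 ± 0.22, adjusted p = 0.00737), and Ms4a1, which encodes CD20, had 7.68 and 11.6 CPM in DP libraries, against 18.6 and 18 CPM in WT CD8 libraries (-0.92 ± 0.25, adjusted p = 0.0433). Both calls were lost with DESeq2 and in 2 or more leave-one-out fits (adjusted p up to 0.0955 and 0.312). No B cell marker was at 0 in any DP or WT CD8 library, and of the macrophage markers Cd14 was at 0 in WT CD8 library 2. The part of B cells and macrophages in the differences given above was not tested.

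NK cell markers summed to 7.37 and 9.32 CPM in DP libraries, against 3.88 and 3.49 CPM in WT CD8 libraries, with Klra8 at 0 in both groups and 0 of 5 tested members called. Gamma delta T cell markers summed to 2.19 and 1.27 CPM in DP libraries, against 2.91 and 2.55 CPM in WT CD8 libraries, with 0 of 4 called. Dendritic cell markers summed to 14.7 and 16.2 CPM in DP libraries, against 12.6 and 9.94 CPM in WT CD8 libraries, with 0 of 5 called. Markers of the immature thymocyte, which also bears both coreceptors, were split: Rag1, Rag2 and the pre-T alpha gene Ptcra were not tested for low counts, and of 4 tested 1 was higher and 1, Themis, lower (-0.34 ± 0.08, lost in every leave-one-out fit). Their summed level was 186 and 191 CPM in DP libraries, against 216 and 219 CPM in WT CD8 libraries. Neutrophil markers Ngp, Ltf, Elane and Retnlg were at 0 in both groups. Of the remaining marker lists, 1 of 4 plasma cell markers (Prdm1, also a T cell factor) was higher, and 0 of 4 NKT, 0 of 4 erythroid and 0 of 1 platelet markers were called.

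**Figure D4:**
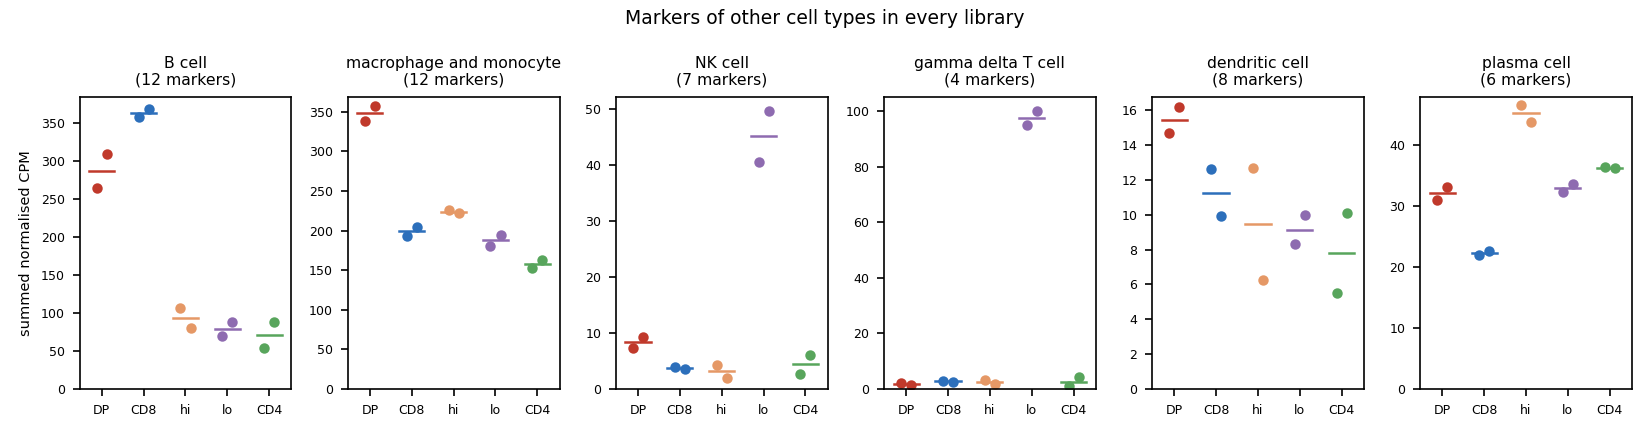
Summed normalised CPM (vertical axes, each from 0) of marker lists of other cell types in every library, with OB11 DP, WT CD8, OB11 CD4hi (hi), OB11 CD4lo (lo) and WT CD4 from left to right; points are libraries 1 and 2 and bars are group means. Macrophage markers were highest in DP (339 and 358 CPM), B cell markers in DP and WT CD8, and NK and gamma delta T cell markers in CD4lo.

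Whether the DP against WT CD8 differences recur on the CD4 side was examined with the pairs CD4lo against WT CD4 and CD4hi against WT CD4, which share no library with it but share WT CD4 with each other. CD4lo against WT CD4 had 1931 calls (15.8% of tested genes), 1075 higher (8.82%) and 856 lower (7.02%). CD4hi against WT CD4 had 2048 calls (16.8%), 1264 higher (10.4%) and 784 lower (6.43%). Both sides of the first pair have the L in their titles. In the second pair WT CD4 alone has it, so what it stands for and the genotype cannot be told apart. Of the 557 genes higher in DP cells, 169 were lower in CD4lo (30.3% of the 557 and 19.7% of the 856 lower in CD4lo) and 81 were higher in CD4lo (14.5% and 7.53%). Of the 278 genes lower in DP cells, 122 were higher in CD4lo (43.9% and 11.3%) and 23 were lower in CD4lo (8.27% and 2.69%). With CD4hi the larger share was in the same direction for genes higher in DP, 222 higher in CD4hi (39.9% of the 557 and 17.6% of 1264) and 51 lower (9.16% and 6.51%). For genes lower in DP, 72 were higher in CD4hi (25.9% and 5.7%) and 43 were lower (15.5% and 5.48%). CD4lo libraries also held gamma delta T cell markers at 94.9 and 100 CPM and NK markers at 40.5 and 49.7 CPM, whose part in the CD4lo values was not tested.

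The difference of the differences, DP minus WT CD8 less CD4lo minus WT CD4, was called for 1688 genes (13.8%), 839 positive (6.88%) and 849 negative (6.96%). The same with CD4hi was called for 1156 genes (9.48%), 485 positive (3.98%) and 671 negative (5.5%). Each contains the DP minus WT CD8 change itself and also depends on how far WT CD8 and WT CD4 lie apart. Where OB11 groups lie between the wild types, the changes of the pairs have opposite signs. Cd8b1, for example, averaged 520 CPM in WT CD8, 278 in DP, 60.5 in CD4lo and 11 in WT CD4 cells. Foxp3 averaged 1.15 CPM in WT CD8 and 78.8 CPM in WT CD4 cells. How many of the opposite calls given above and below are of this kind was not tested. For the regulatory T cell list the pairs went apart: 16 of 20 were higher in DP, against 0 higher and 13 lower in CD4lo over WT CD4, and 17 of 20 had a called positive difference of differences. With CD4hi, 5 were higher and 3 lower over WT CD4 and 13 differences were called, all positive. Foxp3 fell by 5.85 ± 0.19 in CD4lo over WT CD4 and differed by 0.03 ± 0.10 in CD4hi over WT CD4 (adjusted p = 0.887), beside its rise of 4.84 in DP cells. For the CD8 lineage list, 8 of 19 were lower in DP cells, while 17 were higher and 0 lower in CD4lo and 16 were higher and 0 lower in CD4hi over WT CD4, and 17 and 15 had called negative differences. Ly6c2 rose by 5.71 ± 0.20 in CD4lo and by 3.91 ± 0.24 in CD4hi over WT CD4, where WT CD4 libraries had 1.6 and 1.53 CPM. Zbtb7b fell in both, by 4.06 ± 0.12 and 2.44 ± 0.10.

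Other genes were called in the same direction. Lag3 rose by 3.17 ± 0.21 and Tigit by 2.43 ± 0.22 in CD4hi over WT CD4, and their differences of differences with DP were 0.40 ± 0.36 (adjusted p = 0.583) and 0.34 ± 0.35 (adjusted p = 0.638), which does not show that the changes are equal. In CD4lo over WT CD4, Lag3 differed by 0.15 ± 0.28 (adjusted p = 0.787) and Tigit fell by 1.27 ± 0.32, and both differed from the DP change, by 3.42 ± 0.39 and 4.05 ± 0.41. Mki67, a proliferation marker, rose by 1.81 ± 0.11 in DP over WT CD8, by 1.22 ± 0.12 in CD4lo and by 2.04 ± 0.12 in CD4hi over WT CD4.

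**Figure D5:**
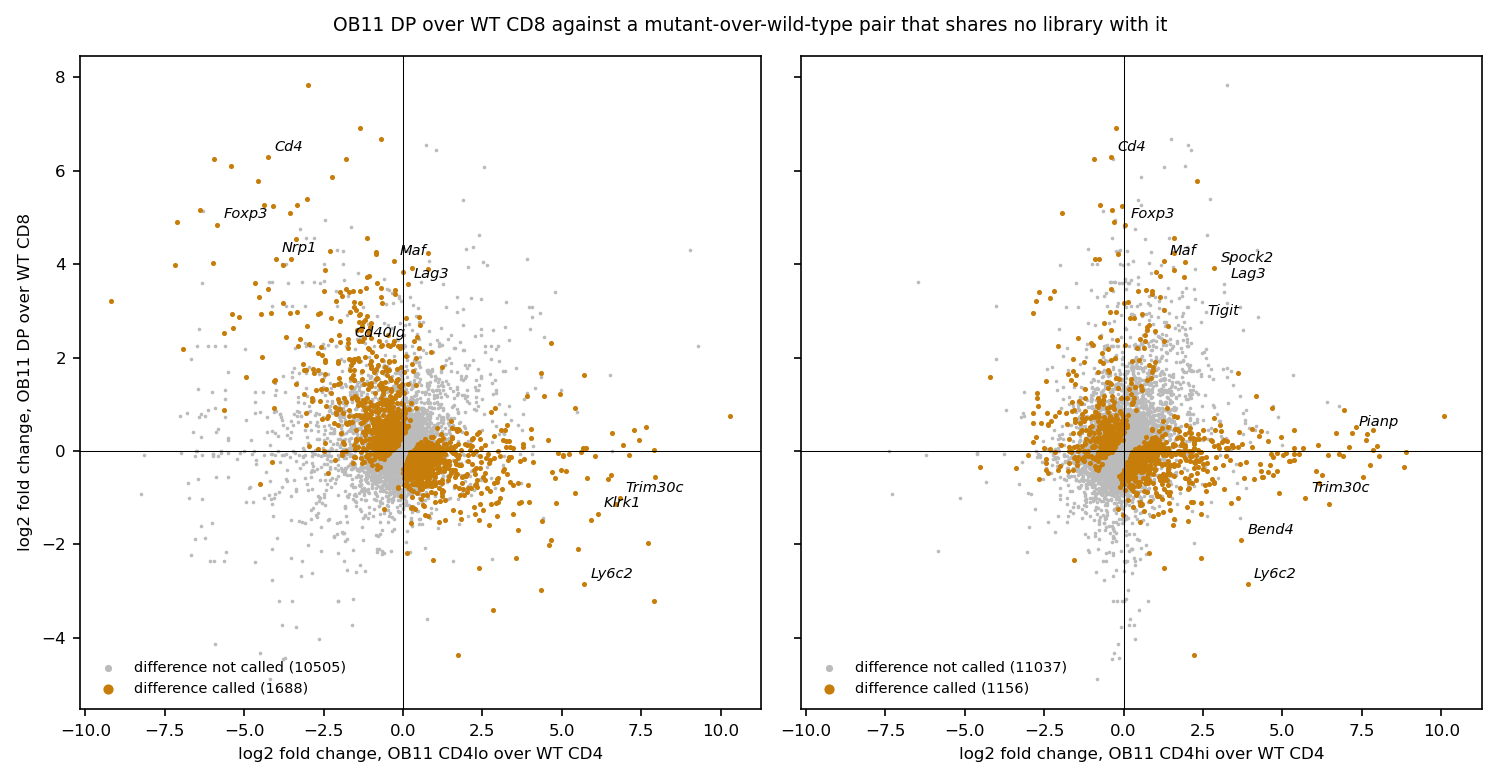
Log2 fold change of OB11 DP over WT CD8 (vertical axes) against that of OB11 CD4lo over WT CD4 (left) and OB11 CD4hi over WT CD4 (right), one point per tested gene; orange points are genes whose difference of differences was called, 1688 on the left and 1156 on the right. Foxp3 and Cd4 lie high and to the left of 0 in the left panel, and Ly6c2 lies low and far to the right in both.

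Interferon-stimulated genes differed between pairs in another way. Of 40 tested, 3 were higher (7.5%) and 1 lower (2.5%) in DP over WT CD8, with a median of 0.03. These are near the shares over all tested genes, 4.57% and 2.28%. Over WT CD4, 36 were higher in CD4lo and 35 in CD4hi, with medians of 0.82 and 0.99 and 0 lower in either. Differences of differences were called for 27 and 28 of them, all negative. Ifit1, an antiviral protein gene, had 98 and 110 CPM in DP libraries, against 102 and 89.6 CPM in WT CD8 libraries (adjusted p = 0.506). It had 92 and 92.3 CPM in CD4hi and 112 and 112 CPM in CD4lo libraries, against 27.7 and 24.6 CPM in WT CD4 libraries. Summed over the list, levels were 4030 and 4130 CPM in DP, 4080 and 4070 CPM in WT CD8, 3750 and 3870 CPM in CD4hi, 3930 and 3910 CPM in CD4lo and 2550 and 2440 CPM in WT CD4 libraries. The WT CD4 libraries alone were low. None of the 4 calls in DP over WT CD8 (Ifi204, Gbp3 and Ifit2 higher, Oas2 lower) was made with DESeq2.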

How the data were processed

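RNA was sequenced from naive spleen T cells with a directional kit and depletion of ribosomal cDNA, from 10 ng of total RNA, per the labels' protocols. The authors deposited raw read counts per gene symbol, made with TopHat2 and HTSeq on mm10 per the submitters' processing notes. Versions, annotation and strand setting are not given in the sources used here, so reads of overlapping antisense genes may not be separated. The table has 34573 genes, 25 of them with symbols turned into dates, and totals of 5055956 to 7417789 counts per library. One symbol, AC087541.1, held 11.1% to 16.4% of counts.

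Counts were analysed with R 4.3.3, edgeR 4.0.16 and limma 3.58.1. Genes were kept by filterByExpr (12193 genes, 99.7% of counts), scaled by TMM, and entered 1 quasi-likelihood model of 10 libraries in 5 groups, with 5 residual degrees of freedom. Tests were two-sided F tests with Benjamini-Hochberg adjustment at 0.05. SE is the log2 fold change divided by the root of F. Differences of differences are contrasts of the same fit. No permutation test was made, since 2 libraries a side allow an exact p no lower than 0.333. Groups with 1 to 3 counts are given as ratios with exact 95% conditional intervals, which cover counting error only, since the counts carry no molecular identifiers. The fit was tested on simulated data drawn from its own estimates of spread, with the WT CD8 profile as the base of every group. That test therefore does not check the spread, the unlike groups or the libraries with few zeros. Replicates differed beyond counting error, with a mean chi-square per gene (minimum 20 counts) of 3.48 for DP and 3.6 for WT CD8. It was higher in the other groups, at 6.93 for CD4hi, 8.14 for CD4lo and 15.1 for WT CD4. The estimate of spread is shared by these unlike groups, so it may be too small for comparisons with WT CD4 and too large for DP against WT CD8.

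Named genes were 13 lineage genes chosen by name, the 15 highest and 15 lowest calls with average log2 CPM of at least 3 and libraries that do not overlap, up to 6 calls per list and 6 per difference of differences; predicted models, receptor segments and ribosomal, mitochondrial and histone genes were left out of the ranked parts, and uncalled members are given by value. The libraries of DP and WT CD8 did not overlap in 6245 genes (51.2%). The members, the 33 pathway lists and the 11 cell type lists were chosen with earlier results of these data known. Values against WT CD4 were added after the values were seen. Replicate numbers did not pair the samples (r = 0.052 for DP and WT CD8). Alternatives were RLE and upper-quartile scaling, no filter, DESeq2 1.42.0, a replicate block, a fit of the 4 libraries, each library left out and, added after seeing the data, both libraries with few zeros left out and a crossed block. Positions come from GENCODE for 10972 symbols (90%), promoter windows from RefSeq on GRCm38.p6. Some genes are not reported here.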

Additional observations from a re-analysis of the deposited data

Results flagged for a closer look

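Differences between the DP against WT CD8 change and the change on the CD4 side were called for 1688 genes with CD4lo over WT CD4 and for 1156 genes with CD4hi over WT CD4. Among genes whose log2 CPM averaged 3 or more, and under the other limits of the ranked gene choice, the 6 of largest difference with CD4lo, on the log2 scale, were Cd4 (10.5), Foxp3 (10.7), Lrrc32 (12), Nrp1 (8.13), Ly6c2 (-8.55) and Trim30c (-7.83), where a positive value means a more positive change in DP over WT CD8. Genes of lower average level, such as Itgb8, Il21 and Klrc1, had larger values than some of these (11.55, 10.34 and -9.69) and rest on groups with few counts. With CD4hi, genes of large difference under the same limits were Cd4 (6.7), Ly6c2 (-6.75), Bend4 (-5.62), Trim30c (-6.73) and Pianp (-6.8). Cd4 is set by the sort gates in these groups. The wild types themselves lay far apart for Foxp3 (1.15 CPM in WT CD8, 78.8 in WT CD4) and Ly6c2 (132 and 1.56 CPM), which enters these values. Several values rest on groups near 0, and their size then depends on the prior count: Lrrc32 had 0 and 0.392 CPM in CD4lo libraries, and Trim30c had 0.178 and 0.139 CPM and Pianp 0 and 0.139 CPM in WT CD4 libraries. Pianp itself was not called between DP and WT CD8, with 13 and 10.9 CPM in DP libraries, against 7.57 and 10.3 CPM in WT CD8 libraries (adjusted p = 0.449).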

How the results depend on the processing

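Of 153 named genes, 148 were called, 77 of them in every alternative and 71 lost in at least one, and no called gene changed sign. With DESeq2, DP against WT CD8 had 502 calls (340 higher, 162 lower), CD4lo against WT CD4 1270, CD4hi against WT CD4 1287 and the difference of differences with CD4hi 741. The fit of the 4 libraries gave 1351 calls, 539 of them lower, and leaving out both libraries with few zeros gave 438 lower. Leaving out 1 library gave 312 to 399 calls (229 to 276 higher, 83 to 123 lower) for DP against WT CD8, 1239 to 1813 for CD4lo and 1193 to 1852 for CD4hi against WT CD4, and 1144 to 1706 and 710 to 1284 for the differences of differences with CD4lo and CD4hi. Other scalings gave 839 and 838 calls and no filter 905, and higher calls made up 60.1% to 73.4% across alternatives, against 66.7% as reported. Only Tbx21, which was not called, reversed: -0.00642 (RLE), -0.00731 (no filter), -0.00309 (DESeq2), -0.00739 (4 libraries), -0.00664 (without both libraries with few zeros), and -0.157 (without DP library 2) to 0.134 (without WT CD8 library 2) with 1 library left out, including -0.115 without WT CD8 library 1. The causes were not tested. With a replicate block the calls were 708, 1703, 1885, 1541 and 1032 for DP against WT CD8, CD4lo and CD4hi against WT CD4 and the 2 differences of differences; the numbers mark no stated pairing. Differences of replicate 1 minus 2 in CD4hi and CD4lo correlated negatively with those in WT CD4 (r = -0.548 and -0.147). CD4hi library 1 and WT CD4 library 2 are the libraries with few zeros, and their part in these values was not tested. A crossed block gave 2290 calls for CD4lo and 2222 for CD4hi against WT CD4. It was added after seeing the data and is no separate check. With 2 libraries per group and totals of 5055956 to 7417789 counts, genes of a few CPM rest on few reads.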

Other observations

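Genes of the cell cycle were called higher in DP than in WT CD8 cells for 11 of 36 tested (30.6%) and lower for 0. Over all tested genes the shares were 4.57% and 2.28%. The median of the list was 0.50. Mki67 had 113 and 120 CPM in DP libraries, against 35.5 and 31.3 CPM in WT CD8 libraries, and Top2a, which encodes the topoisomerase of dividing cells, was chosen after its value was seen and had 62.4 and 59.3 CPM in DP libraries, against 20.8 and 24.3 CPM in WT CD8 libraries. The count was 2 to 6 with 1 library left out and 5 with DESeq2, and the replication genes Pcna and Mcm6 were not called. Ezh2, the histone methyltransferase of Polycomb, had 42.8 and 39.7 CPM in DP libraries, against 22.5 and 20.8 CPM in WT CD8 libraries, a rise of 0.93 ± 0.14 (adjusted p = 0.000893). Among phosphodiesterases, which degrade cyclic nucleotides, Pde2a and Pde7a fell by 1.37 ± 0.08 and 0.74 ± 0.09 while Pde5a rose by 0.93 ± 0.12. Pde5a had 30.2 and 34.7 CPM in DP libraries, against 16.5 and 17.6 CPM in WT CD8 libraries, and 1.42 and 1.25 CPM in WT CD4 libraries.

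Receptors for cytokines split, with 8 of 34 higher (23.5%) and 7 lower (20.6%), against 4.57% and 2.28% over all tested genes. Tgfbr3, the TGF-beta coreceptor, had 106 and 102 CPM in DP libraries, against 64.4 and 58.3 CPM in WT CD8 libraries, a rise of 0.76 ± 0.08, and Ifngr1, a chain of the interferon gamma receptor, fell by 0.59 ± 0.11. The survival gene Bcl2 had 185 and 183 CPM in DP libraries, against 247 and 247 CPM in WT CD8 libraries, a fall of -0.43 ± 0.07 in log2. P2rx7, an ATP-gated channel, had 54.7 and 60 CPM in DP libraries, against 18.4 and 21.1 CPM in WT CD8 libraries, a rise of 1.53 ± 0.10. Of 54 T cell receptor variable segments tested, 6 were higher and 0 lower, among them Trbv3, with 43.9 and 46.3 CPM in DP libraries, against 25.8 and 27.8 CPM in WT CD8 libraries (0.75, adjusted p = 0.0012); reads of similar segments may be shared. The class I genes H2-Q6 and H2-Q7 fell by 0.45 ± 0.08 and 0.44 ± 0.07 and are near-identical copies whose reads cannot be assigned with certainty.

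The remaining lists are given by their counts, beside 4.57% higher and 2.28% lower over all tested genes. Of tested members, 4 of 25 genes of the T cell receptor complex were higher and 2 lower, 5 of 21 chemokine and homing receptors higher (23.8%) and 3 lower (14.3%), and 5 of 22 TNF ligands and receptors higher and 1 lower. In the recent thymic emigrant list 3 of 13 were higher (23.1%) and 3 lower (23.1%). Among DNA and histone methylation enzymes 4 of 16 were higher (25%) and 1 lower, and in the Bcl2 family 1 of 14 higher and 2 lower. The lower TNF list member, Tnfrsf13c (-1.07 to -0.99 over the alternatives), lost its call with DESeq2. So did Cr2, a lower member of the emigrant list (-1.33 to -0.943). Among glycolysis genes 3 of 19 were higher and 0 lower, among them Pkm, which encodes pyruvate kinase and had 249 and 283 CPM in DP libraries, against 164 and 193 CPM in WT CD8 libraries (0.57 ± 0.10). Pkm, Gapdh and Ldhb all lost their call in some fit, with adjusted p up to 0.0815, 0.0752 and 0.139. Of cholesterol and lipid genes 1 of 24 was higher and 1 lower, of Gimap GTPases 2 of 8 higher, of the Schlafen family 1 of 7 higher, of Ly6 antigens 1 of 7 higher and 1 lower, of class I genes 2 of 17 lower, of heat shock genes 2 of 12 lower, and of sex-linked genes 0 of 4 were called.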
